A study of Mus musculus with 11 samples.

Results

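Estradiol was compared with placebo in the jaw cartilage of female mice that lack estrogen receptor alpha, which asks what the hormone changes when its main receptor is missing. The comparison rests on 6 of the 11 RNA libraries of the study, chosen by their genotype and agent labels: 3 from receptor alpha knockout mice (ERalphaKO, here KO) given placebo and 3 from KO mice given estradiol. The other 5 libraries come from wild-type (WT) mice, 2 given placebo and 3 given estradiol, and were used to test whether the estradiol effect differed with genotype. All mice were C57BL/6 females whose ovaries were removed at 6 weeks of age, so placebo animals of both genotypes lacked the ovarian source of estrogen. At that surgery they received a placebo or an estradiol pellet of 0.01 mg made for a 60-day release, and 1 week later, at 7 weeks, the fibrocartilage of the mandibular condyle was dissected and its poly-A RNA sequenced. All cells of the tissue were sequenced together. The labels do not name the part of the receptor gene that was removed or the tissues that lack it. They number the replicates of each group without stating whether the libraries of a group came from separate animals, and p-values here thus cover only the spread among these libraries, which may be technical.

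Estradiol acts in the nucleus through estrogen receptors alpha and beta, encoded by Esr1 and Esr2, and at the membrane through the G protein-coupled receptor encoded by Gper1. The condylar fibrocartilage covers the jaw joint with a lubricated fibrous surface, a layer of dividing progenitors, and deeper chondrocytes that enlarge and give way to bone. In that bone lies marrow, where blood cells form.

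The KO libraries held 15.7 to 24.0 M counts. Levels are given as CPM, counts per M of the scaled library size, and estradiol effects as log2 differences, estradiol minus placebo, from 1 edgeR quasi-likelihood fit over 14531 genes in all 11 libraries. A gene was called, and is said to have risen or fallen, where its Benjamini-Hochberg adjusted p over these genes was under 0.05. Cartilage genes were present in every KO library, with Col2a1, the main cartilage collagen, at 3706 to 9896 CPM and Col10a1, the collagen of hypertrophic chondrocytes, at 594 to 881 CPM. Col1a1, a collagen of both fibrous tissue and bone, was more abundant in counts, at 55590 to 77864 CPM. Esr1 was counted at 4.86, 3.99 and 2.68 CPM in KO placebo 1 to 3 and at 3.41, 2.55 and 3.75 CPM in KO estradiol 1 to 3, below the WT group means of 10.003 and 7.03 CPM. Esr2 was under the floor of 3 counts in 5 of the KO libraries by its level, at 0 to 0.279 CPM, and was not tested, and Gper1 was not analysed here.

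Some libraries stood apart in ways that the labels do not give. Several genes of the circadian clock, chosen for this look after their values were seen, fell into opposite states. Dbp, a transcription factor driven by the clock, stood at 304, 301 and 49.0 CPM in KO placebo 1 to 3 and at 18.6, 27.1 and 15.8 CPM in KO estradiol 1 to 3. Arntl, the core clock activator whose rhythm runs opposite to it, stood at 7.78, 6.94 and 54.5 CPM in the placebo libraries and at 60.6, 44.2 and 55.2 CPM in the estradiol libraries. Dbp was thus above Arntl in KO placebo 1 and 2, as in WT placebo 1 (314 and 8.67 CPM), and below it in the other 8 libraries. None of the clock genes was called for estradiol in KO (adjusted p = 0.18 for Dbp, log2 -3.42, SE 1.11). The hour of tissue collection is not given in the sources used here. Estradiol and this state cannot be told apart in KO except through KO placebo 3, so the counts of calls and of cell cycle genes below are also given with the state as a term in the fit and in the 8 libraries of 1 state alone, both chosen after seeing the data.

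**Figure D1:**
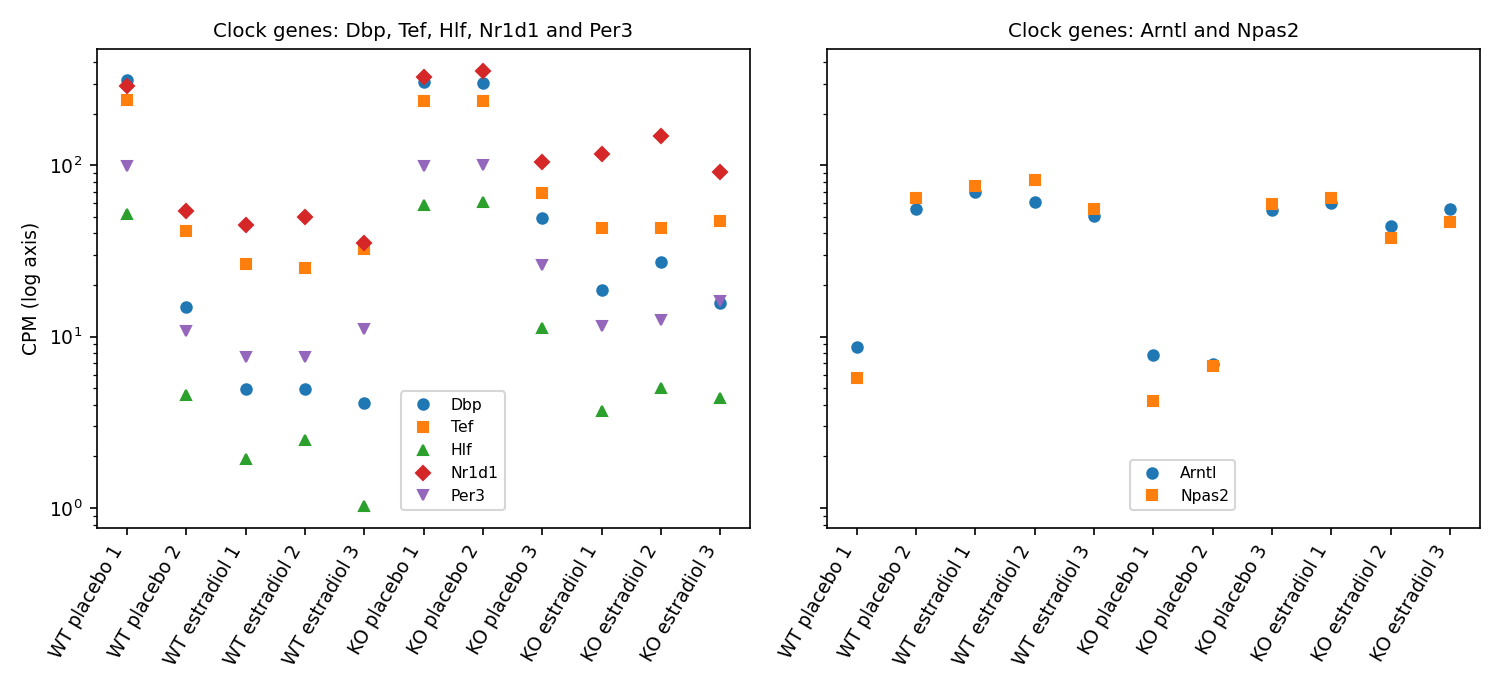
Levels of 7 clock genes in each of the 11 libraries, in CPM on a log axis, with 1 point for each gene and library. Dbp lay at 301 to 314 CPM in WT placebo 1 and KO placebo 1 and 2 and at 4.12 to 49.0 CPM in the other 8 libraries, and Arntl at 6.94 to 8.67 against 44.2 to 69.8 CPM.

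Skeletal muscle markers also differed between the KO groups. Acta1, the skeletal actin, stood at 112, 208 and 20.005 CPM in KO placebo 1 to 3 and at 0.949, 0.772 and 1.56 CPM in KO estradiol 1 to 3. Of 31 muscle genes tested, 25 were lower in every estradiol library than in any placebo library, against 12.4% of all genes tested, and 0 were called in edgeR. Their median log2 difference was -4.09, against -0.00255 over all genes. Summed over the list of 34, the level was 863 to 1941 CPM under placebo and 635 to 696 CPM with estradiol. Tpm1, a tropomyosin that other cells express too, gave 644 to 739 CPM of the placebo sums and 532 to 597 CPM of the estradiol sums. Actn2, which crosslinks actin in the sarcomere, had 660 counts in the placebo group and 1 in the estradiol group, 550 times as much for equal depth (95% counting interval 98.4 to 21770), at an adjusted p of 0.123. Of the muscle genes, 2 had no count in any placebo library and 1 had no count in any estradiol library. WT placebo 2 stood apart too, with 16.04% of its counts in the ribosomal RNA gene Rn45s against 1.83% to 3.13% in the other libraries. In KO placebo 3 the immediate early gene Fos, also chosen after its values were seen, stood at 121 CPM against 23.7 to 37.4 CPM in the other KO libraries.

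With estradiol, 396 genes were called in KO tissue (2.73% of those tested), 343 of them higher (2.36%) and 53 lower (0.365%). The higher genes had a median log2 difference of 1.11, or 2.15-fold, and the lower genes one of -0.49, or 1.41-fold. At an unadjusted p under 0.05 there were 2392 genes, and over all genes 49.5% had a positive difference. In all of the 396 called genes the 3 estradiol libraries lay wholly above or below the 3 placebo libraries. That separation was met upward by 1798 genes in all (12.4%) and downward by 1799 (12.4%). Of the 343 higher genes, 64 belonged to the lists of DNA replication and of mitosis drawn up for this comparison, 13 to lists of blood cell genes, and 262 to none of the 43 lists. The authors' deposited table of this comparison lists 1074 genes at an adjusted p under 0.05, 673 higher and 401 lower, and 392 of the 396 are among them.

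The number of calls depended on single libraries. Leaving out KO placebo 1, 2 or 3 gave 105, 139 and 241 calls. Leaving out KO estradiol 2 gave 126, and leaving out WT estradiol 1 or 2 gave 241 and 240, the WT libraries entering through the shared estimate of spread. With the replicate number as a block it was 629, of which 542 were higher. With the clock state as a term 23 genes were called, all higher, and 19 of them were among the 396. Of the 65 called genes followed by name, 7 kept their call with that term: Casc5, Myl4, Pyhin1, Rrm2, Smc2, Top2a and Uhrf1. The blood cell genes named below other than Myl4 and Pyhin1, and the genes named below as lower, did not pass with it. In the 8 libraries of 1 clock state, where KO placebo 3 stands alone against 3 estradiol libraries and is assumed to vary like the other groups, edgeR called 1 gene, and 1303 had an unadjusted p under 0.05.

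Genes of cell division rose with little spread within the groups. The list of mitosis and chromosome segregation rose almost whole, with 49 of 50 genes called higher at a median log2 difference of 1.26. In the list of DNA replication and S phase, the stage in which DNA is copied, 15 of 45 were called higher at a median of 0.54. Of the 45, 33 were higher in every estradiol library than in any placebo library. Over all genes tested, 2.36% were called higher and 12.4% were higher in every estradiol library. No member of either list was called lower. Dividing cells switch on replication genes through E2F factors in S phase and mitosis genes later, through the MuvB and FOXM1 complexes, which bind the cell cycle homology region (CHR) of their promoters, often next to a CCAAT box bound by NF-Y. The promoters of 4 leading members, Rrm2 and E2f8 of the replication list and Top2a and Smc2 of the mitosis list, are shown here. They were picked among called members of small p for holding a searched motif, each at the start site with most matches. The E2F site counted below is in none of the 4 promoters as printed. Each is the run of 250 bases before the RefSeq start site (GRCm38.p6; the deposited counts carry no coordinates), written 5′ to 3′ on the gene's strand, with capitals marking CCAAT boxes (CCAAT, or ATTGG on the other strand) and CHR motifs (TTTGAA or TTCAAA).
Rrm2, chr12:24708004-24708253, plus strand: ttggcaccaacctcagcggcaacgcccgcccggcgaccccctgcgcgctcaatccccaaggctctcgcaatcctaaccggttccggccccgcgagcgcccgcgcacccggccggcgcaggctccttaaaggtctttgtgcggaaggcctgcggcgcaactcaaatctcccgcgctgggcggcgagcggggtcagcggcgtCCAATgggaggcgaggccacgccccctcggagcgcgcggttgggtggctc
E2f8, chr7:48881597-48881846, minus strand: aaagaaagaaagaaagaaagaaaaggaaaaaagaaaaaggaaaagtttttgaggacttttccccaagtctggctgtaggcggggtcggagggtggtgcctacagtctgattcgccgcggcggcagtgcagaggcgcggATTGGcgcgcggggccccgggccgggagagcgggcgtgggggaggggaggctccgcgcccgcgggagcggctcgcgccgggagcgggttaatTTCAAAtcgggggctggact
Top2a, chr11:99024190-99024439, minus strand: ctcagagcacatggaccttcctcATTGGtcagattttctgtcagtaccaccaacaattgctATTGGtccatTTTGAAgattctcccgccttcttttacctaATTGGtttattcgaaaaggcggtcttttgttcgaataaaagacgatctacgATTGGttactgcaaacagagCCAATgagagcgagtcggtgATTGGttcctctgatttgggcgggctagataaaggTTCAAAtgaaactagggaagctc
Smc2, chr4:52438971-52439220, plus strand: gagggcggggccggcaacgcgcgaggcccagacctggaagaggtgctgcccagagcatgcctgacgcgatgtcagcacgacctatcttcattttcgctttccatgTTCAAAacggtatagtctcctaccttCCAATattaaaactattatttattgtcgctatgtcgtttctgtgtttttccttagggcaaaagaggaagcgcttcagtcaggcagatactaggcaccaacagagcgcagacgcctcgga

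The motif counts below cover windows of 300 bases, from 250 before to 50 after each RefSeq start site, on both strands. Of the tested genes 10712 had such a window, 13680 windows in all, and no motif contains another. The CHR motif was in 32 of 41 windows of the mitosis list (78%) and in 6 of 43 of the replication list (14%), against 12% of all windows. It was in 33.3% of the windows of all genes called higher in KO, 11.6% of those called lower and 12.8% of those called higher by estradiol in WT. A CCAAT box was in 70.7% of the mitosis windows, 60.5% of the replication windows and 37.2% of all windows. An E2F site, spelled TTT, then 2 bases each C or G, then CGC, was in 37.2% of the replication windows, 7.32% of the mitosis windows and 3.64% of all windows. The estrogen response element, the arms GGTCA and TGACC set 3 bases apart, was in 1 of the 13680 windows and in 0 of the windows of either list. These are matches of letters and do not show that a factor binds.

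Among the mitosis genes, Mki67, which coats chromosomes and marks dividing cells, stood at 55.5, 64.2 and 60.4 CPM in KO placebo 1 to 3 and at 182, 178 and 138 CPM in KO estradiol 1 to 3. Its rise was 1.47 (SE 0.20, adjusted p = 0.00562). Top2a, the topoisomerase that untangles sister DNA, stood at 54.2, 55.6 and 59.1 CPM against 171, 156 and 119 CPM, a rise of 1.40 (SE 0.15, adjusted p = 0.00197). In both genes the placebo libraries were alike and the lowest estradiol library was KO estradiol 3. Smc2, a condensin subunit that compacts chromosomes, stood at 26.7, 24.5 and 26.2 CPM against 54.9, 50.6 and 43.2 CPM and rose by 0.94 (SE 0.10, adjusted p = 0.00197). Kif11, the motor that separates spindle poles, went from 21.8, 21.3 and 22.4 CPM to 70.8, 62.6 and 48.9 CPM (log2 1.47, SE 0.17, adjusted p = 0.00402). The groups did not overlap in either gene, and the order of the estradiol libraries was again 1, 2, 3.

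The cyclins and kinase of mitotic entry rose together, Ccna2 by 1.40, Ccnb1 by 1.31, Ccnb2 by 1.27 and Cdk1 by 1.20. Foxm1, which encodes a transcription factor of this gene program, went from 19.2, 20.7 and 21.3 CPM to 50.5, 38.1 and 31.9 CPM (log2 0.97, adjusted p = 0.011). The kinetochore and checkpoint genes Casc5, Bub1, Nuf2 and Spc25 rose by 1.40, 1.36, 1.29 and 1.36, and the chromosomal passenger genes Birc5 and Aurkb by 1.17 and 1.29. Of the kinesins, Kif15 rose by 1.24, Kif18b by 1.44 and Kif20a by 1.06. Anln, a scaffold of the cleavage furrow, rose by 1.40 from 19.7 to 26.3 CPM under placebo to 44.9 to 84.5 CPM with estradiol. The smallest rise was that of Smc4, the condensin partner of Smc2, at 0.63 (SE 0.09, adjusted p = 0.00532). Pttg1, which encodes securin, was the 1 member not called, at 14.9, 15.1 and 13.3 CPM against 15.1, 15.5 and 12.2 CPM (log2 -0.02, adjusted p = 0.959).

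In the replication list the median difference was smaller and fewer genes passed. Rrm2, the ribonucleotide reductase subunit made in S phase, stood at 26.3, 25.7 and 24.9 CPM in KO placebo 1 to 3 and at 59.3, 73.2 and 51.9 CPM in KO estradiol 1 to 3. It rose by 1.26 (SE 0.12, adjusted p = 0.000866), with a wide gap between the groups. E2f8, an E2F family repressor that is itself made in S phase, stood at 6.13, 6.61 and 5.69 CPM against 16.5, 27.0 and 15.8 CPM and rose by 1.68 (SE 0.22, adjusted p = 0.00432). Uhrf1, which keeps DNA methylation through replication, rose by 1.01 from 25.999, 24.4 and 19.0 CPM to 48.8, 54.7 and 36.1 CPM. Rrm1, the other reductase subunit, rose by 0.70. Of the MCM helicase genes, Mcm7 rose by 0.62 (adjusted p = 0.0242), whereas Mcm2 to Mcm6 had differences of 0.36 to 0.70 at adjusted p values of 0.0722 to 0.169. Pcna, the sliding clamp of the polymerases, rose by 0.52 at an adjusted p of 0.0494. The licensing and S phase entry genes Cdt1, Ccne1 and E2f1 had differences of 0.07, 0.15 and 0.27 and overlapped between the groups.

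**Figure D2:**
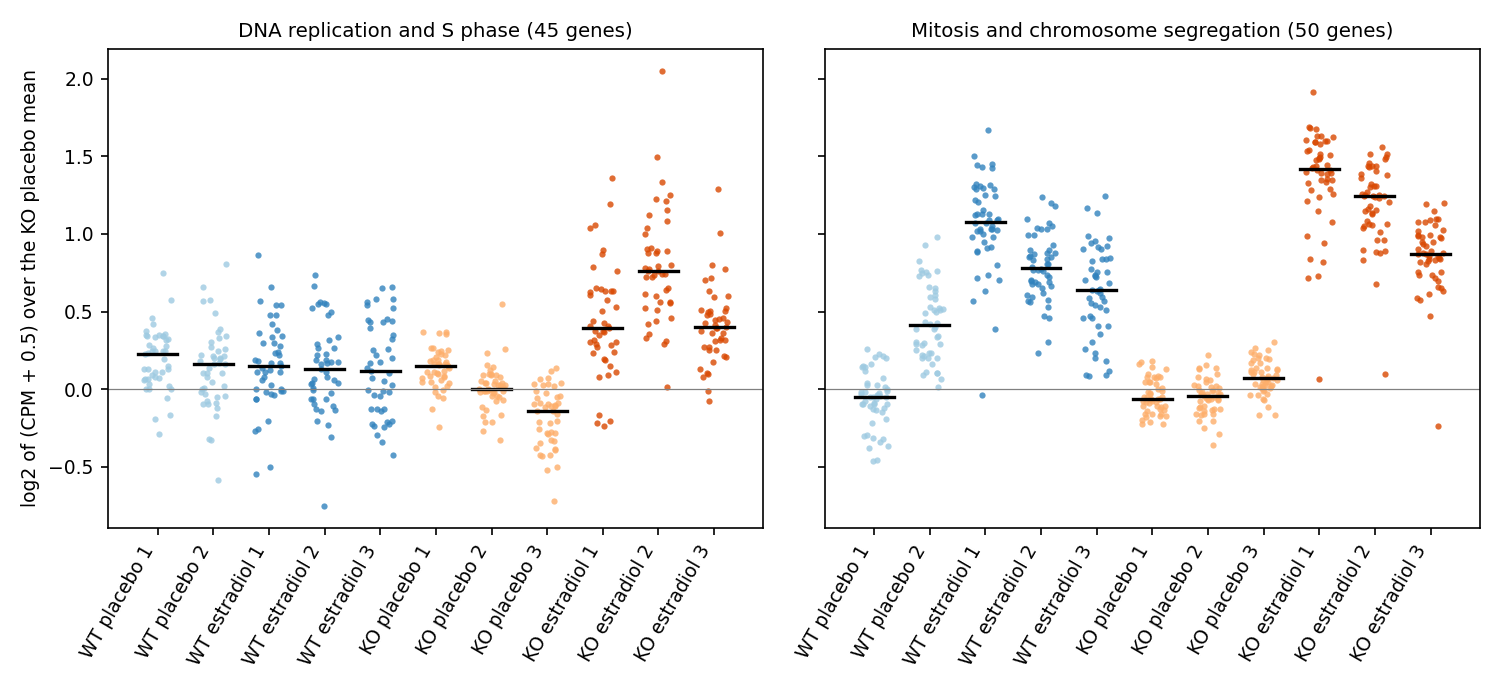
Each point is 1 gene of the replication list (left, 45 genes) or the mitosis list (right, 50 genes) in 1 library, as the log2 ratio of CPM + 0.5 to its mean in the 3 KO placebo libraries, and bars are medians. The mitosis medians were 1.42, 1.24 and 0.87 in KO estradiol 1 to 3, and the replication medians 0.39, 0.76 and 0.40.

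The lists differed in which estradiol library was highest. On the log2 scale over the KO placebo mean (CPM + 0.5), the mitosis median was 1.42, 1.24 and 0.87 in KO estradiol 1 to 3, or 2.68-fold, 2.37-fold and 1.83-fold, and within 0.07 of 0 in each placebo library. The replication median was 0.39, 0.76 and 0.40 in the same libraries, and 0.15, 0.00 and -0.14 in KO placebo 1 to 3. KO estradiol 2 held the highest level of 44 of the 45 replication genes, whereas KO estradiol 1 held that of 38 of the 50 mitosis genes. With the clock state as a term, 3 replication and 4 mitosis genes were called, and the medians were 0.67 and 1.03. In the libraries of 1 clock state 0 members of either list were called, and the medians were 0.74 and 1.15, with 44 of 45 and 50 of 50 differences positive. Without KO placebo 1 the mitosis list had 27 calls and without KO placebo 2 it had 32, and the replication list had 5 without either of them, without KO placebo 3 or without KO estradiol 2. In DESeq2 the replication list had 25 calls.

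Against WT, replication and mitosis genes differed in their WT medians and in calls. The KO effect minus the WT effect had like medians, 0.56 for replication and 0.54 for mitosis genes. Estradiol moved the replication genes by a median of -0.04 in WT, with 0 of 45 called. The difference between the genotypes (KO effect minus WT effect) was called positive for 4 of them, against 0.84% of all genes, among them Rrm2 (1.21, adjusted p = 0.00491), E2f8 (1.56, adjusted p = 0.0451) and Uhrf1 (1.33, adjusted p = 0.0285). Over both directions 167 genes were called for that difference (1.15%), 122 positive and 45 negative (0.31%). The mitosis genes had a median of 0.63 in WT, 1 of 50 was called there, and their difference between genotypes, with a median of 0.54, was called for 0 of 50. In WT itself 225 genes were called for estradiol (1.55%), 95 higher (0.654%) and 130 lower (0.895%). Mitosis genes were thus higher with estradiol in both genotypes by median, and a difference in size between the genotypes did not pass the test.

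Inhibitors of the cell cycle were also looked at. Of 17 such genes, 3 rose and 1 fell, against 2.36% and 0.365% of all genes, at a list median of 0.09. Cdkn2d, a CDK4 and CDK6 inhibitor, stood at 17.8, 17.2 and 15.3 CPM under placebo and at 30.1, 29.4 and 23.2 CPM with estradiol (log2 0.72, SE 0.13, adjusted p = 0.0174). Cdkn2c, of the same family, and Rbl1, the p107 pocket protein, rose by 0.57 and 0.54. Gas1, named for its expression in growth-arrested cells, fell by 0.35 on the log2 scale, from 134, 166 and 141 CPM to 110, 119 and 116 CPM (adjusted p = 0.0495).

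Many genes of blood-forming cells were higher with estradiol as well, with far more spread between libraries. In bulk tissue, fewer cells of a type and less RNA per cell cannot be told apart. Myb, a transcription factor of blood progenitors, stood at 28.8, 20.6 and 16.0 CPM in KO placebo 1 to 3 and at 77.8, 70.5 and 38.5 CPM in KO estradiol 1 to 3. It rose by 1.51 (SE 0.28, adjusted p = 0.0248) without overlap. In WT it went the other way, from 11.9 to 0.413 CPM, and the difference between genotypes was 6.35 (adjusted p = 0.00091). Ikzf1, the lymphoid factor Ikaros, stood at 26.3, 26.4 and 13.9 CPM against 61.9, 84.7 and 39.9 CPM and rose by 1.48 (adjusted p = 0.0339). Of 15 progenitor regulators 3 rose, Myb and Ikzf1 among them, against 2.36% of all genes, and 12 were not called. By sign, 9 of the 15 had positive and 6 negative differences. Cxcr4, the receptor that holds blood cells in the marrow, rose from 20.4, 23.0 and 17.2 CPM to 56.4, 67.7 and 41.6 CPM (log2 1.45, SE 0.17, adjusted p = 0.00402). Its ligand gene Cxcl12 stood at 197, 253 and 188 CPM under placebo and 226, 432 and 318 CPM with estradiol and was not called (log2 0.61, adjusted p = 0.17).

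Early B cell genes pointed up in KO. All 18 tested had a positive difference, 3 rose, and 6 were higher in every estradiol library, at a list median of 0.95. Over all genes tested, 2.36% rose and 12.4% were higher in every estradiol library. Il7r, the receptor for the cytokine that sustains B and T cell precursors, stood at 7.02, 5.58 and 4.80 CPM under placebo and at 26.7, 20.4 and 12.0 CPM with estradiol (log2 1.76, SE 0.40, adjusted p = 0.0467). Myl4 and Blnk, an adaptor of the pre-B cell receptor, rose by 1.56 and 0.78. Summed over 19 genes the level was 278, 224 and 133 CPM in KO placebo 1 to 3 and 468, 473 and 270 CPM in KO estradiol 1 to 3, which overlap. In WT 8 of the 18 fell, against 0.895% of all genes, and the difference between genotypes was called positive for 9, against 0.84%. With the replicate block 7 of the 18 rose in KO.

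Granulocyte genes spread over orders of magnitude between libraries of 1 group. The 7 genes listed for the azurophil granule stage, that of promyelocytes, include the factors Gfi1 and Cebpe besides granule genes. Called azurophil genes here, they summed to 4.69, 81.0 and 18.6 CPM in KO placebo 1 to 3. In KO estradiol 1 to 3 they summed to 114, 350 and 164 CPM. All 7 were higher in every estradiol library than in any placebo library, against 12.4% of all genes. Of the 7, 0 were called, with a median of 2.70. Elane, which encodes neutrophil elastase, shows the spread, with 0, 9.52 and 2.46 CPM against 15.1, 63.6 and 23.4 CPM (log2 3.11, SE 1.15, adjusted p = 0.233). Of 10 genes of specific granules, made later, 1 rose, Fcnb, a ficolin, from 0, 1.17 and 1.06 CPM to 4.63, 25.7 and 10.5 CPM (log2 4.19, SE 0.89, adjusted p = 0.047). Of 11 genes of mature neutrophils 2 rose, Trem1, an activating receptor, and Stfa2l1, by 3.66 and 4.48. Over all genes tested, 2.36% rose. S100a9, a calcium-binding protein of neutrophils, stood at 0.0846, 177 and 38.3 CPM against 303, 1293 and 418 CPM (adjusted p = 0.364). With the replicate block 3, 2 and 6 genes of these lists rose, among them Cebpe, a factor of granule maturation (log2 3.65, adjusted p = 0.00284), which in the fit without the block had an adjusted p of 0.0853.

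Of 15 tested genes of basophils, mast cells and eosinophils 2 rose, against 2.36% of all genes. Both rose from placebo levels of 3 counts or fewer over the group. Prss34, a basophil protease, had 3 counts in the placebo group, and 3.24, 4.39 and 2.32 CPM in KO estradiol 1 to 3. The ratio of 184 to 3 counts, scaled for depth, was 73.6 (95% counting interval 24.8 to 360, adjusted p = 0.00551). Mcpt8, another basophil protease, had 2 counts against 92, a ratio of 55.2 (interval 14.8 to 462, adjusted p = 0.00562). The other 13 tested genes of basophils, mast cells and eosinophils were not called, and the sums of the list overlapped, at 12.3 to 172 CPM under placebo and 147 to 522 CPM with estradiol over 18 genes. The mast cell proteases Mcpt4 and Cma1 had log2 differences of 0.39 and 0.26. In WT, Prss34 went from 3.25 CPM to 0 and Mcpt8 from 1.42 CPM to 0.

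Red cell genes overlapped between the groups, and so did 12 of 13 platelet genes. Slc4a1, the red cell anion exchanger, stood at 0.169, 36.0 and 7.56 CPM under placebo and at 3.35, 98.9 and 72.3 CPM with estradiol, and 0 of 10 erythroid genes were called, at a median of 2.07 with all 10 overlapping. Of the platelet genes 1 was called higher, against 2.36% of all genes, at a list median of 3.43. Of the 13, 12 were highest in KO estradiol 2. The same library held the highest level of all 7 azurophil, all 10 specific granule and 9 of 10 erythroid genes. KO placebo 2 was likewise the highest placebo library for all 7 azurophil, all 10 specific granule and 9 of 10 erythroid genes.

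Further leukocyte genes were among the largest rises. Of the 15 largest rises above a mean of 1 CPM, Clec4e, a receptor for fungal glycolipids on myeloid cells, rose by 3.86, from 0.0846, 0.328 and 0.127 CPM to 0.782, 3.80 and 3.35 CPM (adjusted p = 0.019). Nkg7, of cytotoxic granules, rose by 3.63, Ms4a4c by 2.90, Gca, grancalcin, by 2.85, the Fc receptor gene Fcgr4 by 2.64, and Il2rb, a chain of the receptors for interleukins 2 and 15, by 2.49. F2rl2, a thrombin receptor, rose by 4.59, though 4.69 CPM in KO estradiol 2 stood against 0.335 and 0.76 CPM in the other estradiol libraries. Oas3, an interferon-induced sensor of double-stranded RNA, rose by 2.57, as the 1 called gene of 26 in the interferon list, whose median was 0.35. Ciita, the master activator of MHC class II genes, rose by 1.05 from 2.49, 2.25 and 2.72 CPM to 4.41, 5.58 and 5.50 CPM (adjusted p = 0.0309). It was the 1 called of 11 class II genes, all with positive differences. Over all genes tested 2.36% were called higher, so 1 call says little about the interferon or class II list. Of 17 macrophage genes 0 were called, with Lyz2 at 197, 263 and 247 CPM against 329, 876 and 478 CPM (adjusted p = 0.127), and 0 of 15 osteoclast genes were called, at a median of -0.07.

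**Figure D3:**
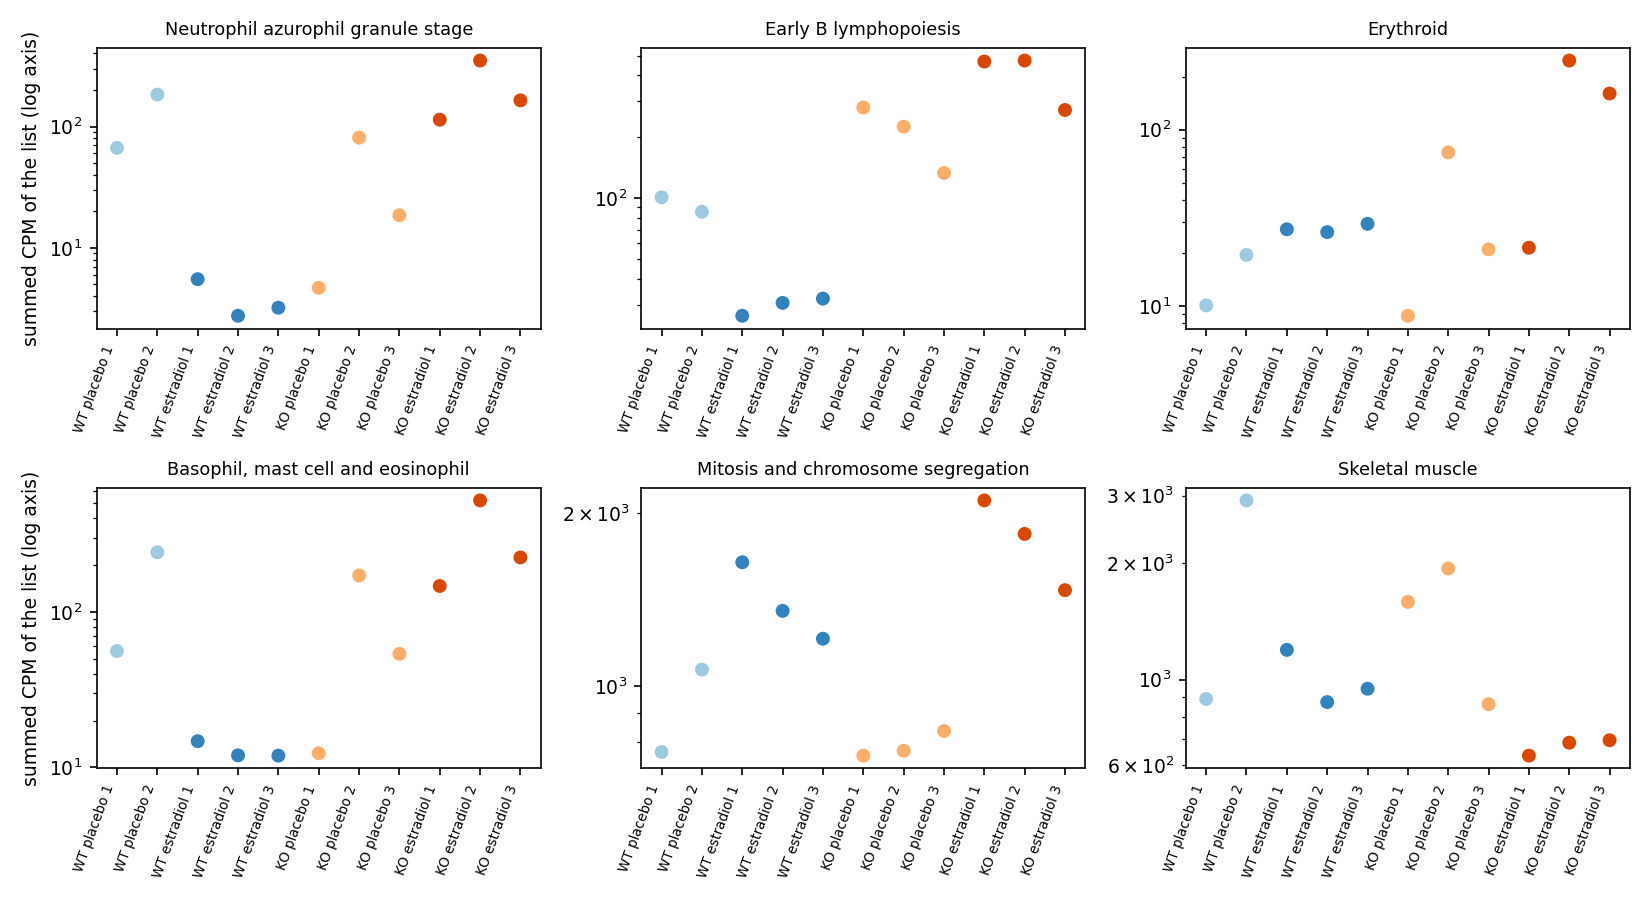
Summed CPM of 6 gene lists in each of the 11 libraries, on log axes, with 1 point per library. With estradiol the mitosis sums in KO were 1470 to 2107 CPM against 757 to 836 CPM under placebo, and the azurophil sums 114 to 350 against 4.69 to 81.0 CPM, while the B cell, erythroid and basophil sums of the KO groups overlapped.

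Blood genes and division genes moved together in KO, and the part of one in the other was not tested. The order of the estradiol libraries differed between blood lists. Azurophil genes were highest in KO estradiol 2 and lowest in KO estradiol 1, at sums of 114, 350 and 164 CPM in KO estradiol 1 to 3. Myb (77.8, 70.5 and 38.5 CPM) and Il7r (26.7, 20.4 and 12.0 CPM) were highest in KO estradiol 1 and lowest in KO estradiol 3, as was the mitosis sum, at 2107, 1842 and 1470 CPM. In WT the azurophil sum was 66.8 and 183 CPM under placebo and 2.76 to 5.53 CPM with estradiol, while the mitosis sum was 768 and 1069 CPM under placebo and 1210 to 1644 CPM with estradiol.

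**Figure D4:**
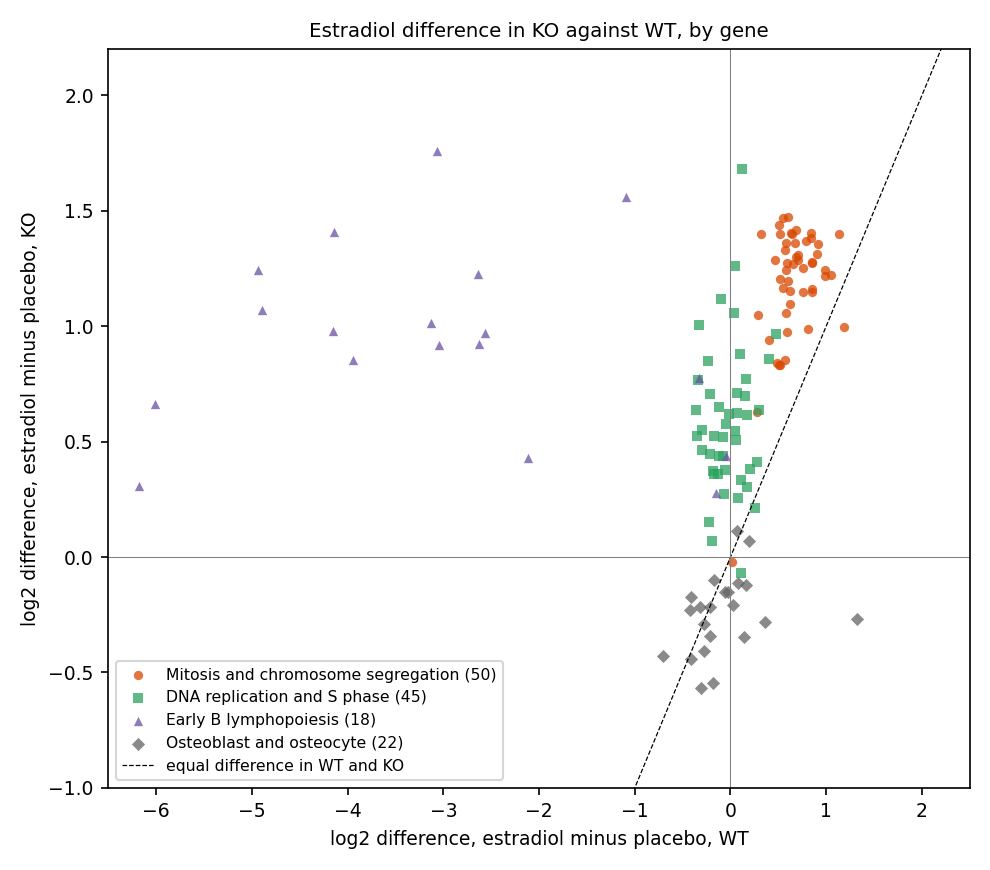
Each point is 1 gene, placed by its log2 estradiol difference in WT (horizontal) and in KO (vertical), for 4 lists, with a dashed line where both are equal. Mitosis genes lie right of 0 and mostly above the line, with medians of 0.63 in WT and 1.26 in KO, replication genes lie near 0 in WT, and B cell genes lie at negative values in WT and positive values in KO.

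The difference between genotypes was called positive for 64 of the 343 higher genes and negative for 0, against 0.84% and 0.31% of all genes. As the 343 were picked for their KO rise, which enters this difference, a lean to positive was built in. By sign, 223 of the 343 were also higher in WT by estimate and 119 lower, and 4 were called higher there and 12 lower. Those with the smallest p for that difference included genes of leukocytes, among others. Nup210, a nucleoporin, rose by 1.65 in KO from 11.7, 16.6 and 9.39 CPM to 40.8, 50.2 and 27.0 CPM, and went from 9.80 to 1.11 CPM in WT (difference 4.80, adjusted p = 0.00115). Pyhin1, an interferon-inducible gene, rose by 1.65 (difference 3.76), Ptprcap, which binds the CD45 phosphatase, by 1.21 (difference 4.79), and Bcl11a, a factor of early lymphoid cells, by 1.35 (difference 4.43). Tmprss3, a membrane protease, rose by 2.24 from 1.40, 1.08 and 0.722 CPM to 5.69, 6.71 and 2.82 CPM, and had 0 counts in WT estradiol (adjusted p of the difference 0.00358).

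The 53 genes that fell had a median log2 difference of -0.49 and ranged from -4.98 to -0.31, and 6 of them fell at least 2-fold. Of the 53, 8 belonged to any of the lists, 47 also had a negative estimate in WT, 6 were called lower there, and for 0 was the difference between genotypes called. Plin4, a lipid droplet coat of fat and muscle cells, stood at 1.52, 4.92 and 0.849 CPM under placebo and at 0.223, 0 and 0 CPM with estradiol (log2 -4.98, SE 0.99, adjusted p = 0.026). Cygb, cytoglobin, a globin of fibroblasts, stood at 19.3, 23.0 and 11.7 CPM against 8.10, 10.1 and 7.78 CPM and fell by 1.06 on the log2 scale (adjusted p = 0.028). Gpnmb, a glycoprotein of bone and phagocytic cells, stood at 66.4, 81.8 and 79.9 CPM against 28.9, 43.4 and 41.9 CPM and fell by 1.00 on the log2 scale at an adjusted p of 0.0351 (SE 0.21). Rtn4r, the Nogo receptor, fell by 1.89 on the log2 scale, with 24.0 and 20.4 CPM in KO placebo 1 and 2 but 7.73 CPM in KO placebo 3, against 4.08 to 5.10 CPM with estradiol. Pfkm, the muscle form of phosphofructokinase, fell by 0.71 on the log2 scale, and Mapk12, a stress kinase abundant in muscle, by 0.68.

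KO placebo 3 was the placebo library nearest to the estradiol group for 41 of the 53 lower genes, KO placebo 1 for 12 and KO placebo 2 for 0. For the 343 higher genes the numbers were 105, 101 and 137 for KO placebo 3, 1 and 2. KO placebo 3 was also the placebo library with the least muscle signal and with the clock state of the estradiol libraries, and the part of either in the falls was not tested. Without KO placebo 1 or 2, 5 and 4 genes were called lower, without KO placebo 3, 84, and without KO estradiol 1 to 3, 25, 6 and 23. Without WT placebo 1 or 2 the number was 137 and 136, and without WT estradiol 1 or 2 it was 28 and 24. With the clock state as a term 0 genes were called lower.

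Bone and surface genes of the condyle were lower by estimate, and 1 in each list passed. Dlx5, a homeobox factor of osteoblasts, stood at 83.5, 94.2 and 67.7 CPM in KO placebo 1 to 3 and at 55.5, 55.4 and 57.2 CPM in KO estradiol 1 to 3. It fell by 0.55 on the log2 scale at an adjusted p of 0.0399 (SE 0.12) and no other gene of the 22 in the list of osteoblast and osteocyte genes was called. Of these, 20 had negative differences, 10 were lower in every estradiol library, and the median was -0.22. Over all genes tested, 12.4% were lower in every estradiol library and 0.365% were called lower. Runx2, the osteoblast master factor, had 271, 302 and 225 CPM against 205, 206 and 218 CPM (adjusted p = 0.443), and Dmp1, of osteocytes, 1555, 1316 and 838 CPM against 881, 830 and 790 CPM (adjusted p = 0.277). Itgbl1 fell by 0.59 on the log2 scale, from 41.2, 33.3 and 29.0 CPM to 23.7, 25.4 and 19.9 CPM (adjusted p = 0.0451), as the 1 called of 15 in the surface and lubrication list. Prg4, which encodes the joint lubricant lubricin, stood at 141, 170 and 106 CPM under placebo and at 53.1, 66.1 and 70.5 CPM with estradiol. Its groups did not overlap, but the difference of -1.14 (SE 0.39) was not called (adjusted p = 0.193).

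Cartilage matrix genes did not separate the groups. Col2a1 stood at 4862, 3706 and 6317 CPM under placebo and at 9896, 4010 and 6568 CPM with estradiol (log2 0.46, SE 0.39, adjusted p = 0.634), the high value being that of KO estradiol 1 alone. Acan, the aggrecan core protein, Sox9, the chondrocyte master factor, Col10a1 and Ihh, the signal of prehypertrophic cells, had differences of 0.04, -0.20, 0.05 and 0.24. Of 23 chondrocyte genes 0 were called at a median of 0.08, and of 19 hypertrophic genes 0 at a median of -0.04. A change under 2-fold, or a larger one in a gene that varies between libraries, may not be detectable with 3 libraries a group.

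Signalling lists leaned down with few calls. Of 45 Wnt pathway genes 2 fell. Fzd1, a Wnt receptor, stood at 74.3, 84.4 and 73.2 CPM against 58.4, 53.9 and 61.6 CPM (log2 -0.41, SE 0.09, adjusted p = 0.038), and the ligand gene Wnt10a fell from 2.54, 3.09 and 1.53 CPM to 0.726, 0.772 and 0.894 CPM (log2 -1.57, adjusted p = 0.0431). Of the 45, 35 had negative differences and 15 were lower without overlap, at a median of -0.22. Over all genes tested, 0.365% were called lower, 12.4% were lower without overlap and 49.5% had a positive difference. The TGF-beta and BMP list had 0 of 47 called, 38 negative and 14 lower without overlap, at a median of -0.17, and the Notch list 0 of 16 called and 15 negative, at -0.15. Junb, an immediate early AP-1 factor, fell by 0.50 on the log2 scale from 74.5, 70.1 and 57.1 CPM to 43.5, 49.4 and 49.4 CPM (adjusted p = 0.0435), as the 1 called of 24 immediate early genes. Ribosomal protein genes (49) and oxidative phosphorylation genes (43) had 0 called and medians of -0.03 and -0.01.

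**Figure D5:**
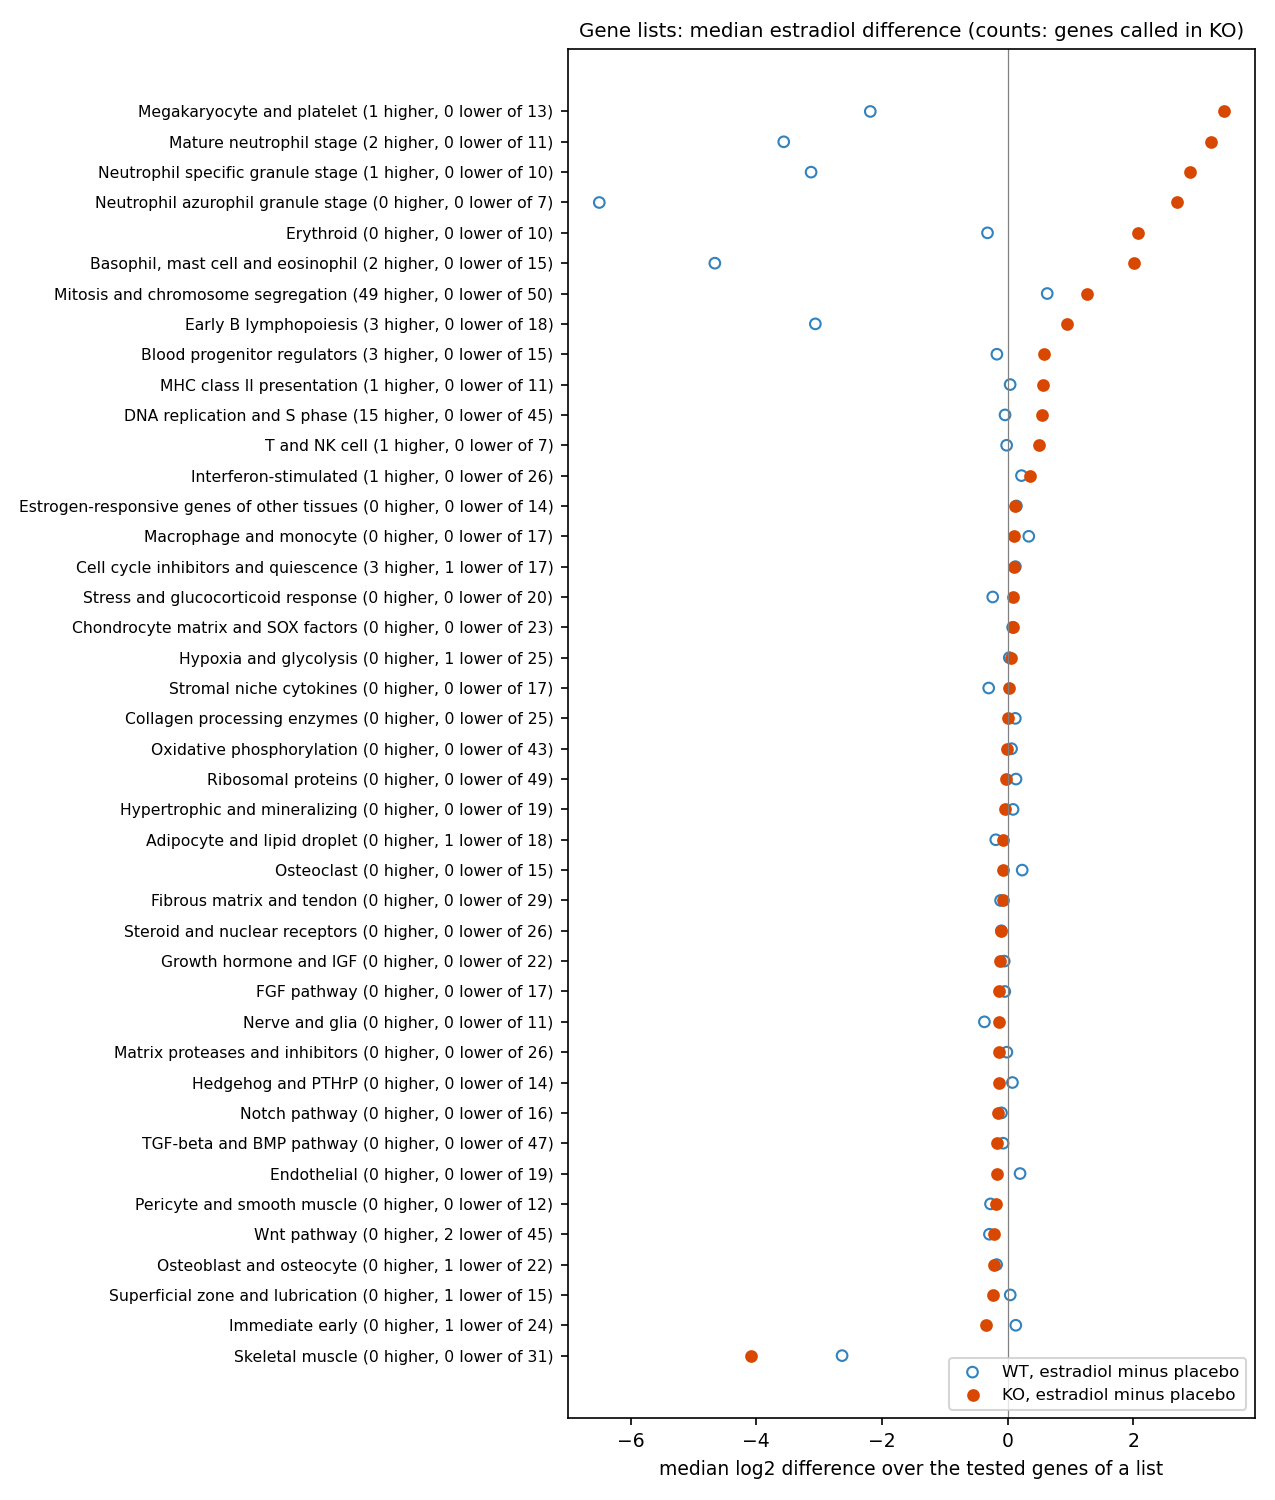
Median log2 estradiol difference over the tested genes of each list, filled for KO and open for WT, with the number of genes called in KO beside each name. The KO medians run from -4.09 for skeletal muscle to 3.43 for platelet genes, and 49 of 50 mitosis and 15 of 45 replication genes were called higher.

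The genes that estradiol raised most in WT were read in KO as the reverse check. These 11 genes were taken from earlier results of the same data, so their WT rise is no finding here, and their KO values are a description. In KO 0 of the 11 were called, at a median of -0.25, and their summed level was 94.7, 96.0 and 94.4 CPM under placebo and 82.6, 77.9 and 79.7 CPM with estradiol. Greb1, a classical target of receptor alpha, stood at 0.169, 0 and 0.0849 CPM against 0.112, 0.0594 and 0 CPM, 6 counts against 3 over the groups. Trpc6, a calcium-permeable channel, stood at 2.75, 2.67 and 2.97 CPM against 1.62, 2.26 and 3.17 CPM, and Lgi2 at 0.592, 0.234 and 0.467 CPM against 0.167, 0.297 and 0.268 CPM. Wnt4 was lower in all 3 estradiol libraries, at 31.9, 29.6 and 31.8 CPM against 38.4, 32.8 and 38.3 CPM (log2 -0.23, adjusted p = 0.19), while WT went from 40.0 to 89.7 CPM. Igf1, the local growth factor, stood at 91.1, 95.1 and 95.6 CPM against 91.3, 128 and 114 CPM (log2 0.24, adjusted p = 0.542), while WT went from 150 to 63.0 CPM, and the difference of 1.49 was called (adjusted p = 0.0201). Pgr, the progesterone receptor gene, had 0 counts under placebo and 2 with estradiol. Of 14 tested genes known to respond to estrogen in other tissues, 0 were called in KO, among them Ccnd1, cyclin D1, at 178, 150 and 82.5 CPM against 61.4, 72.9 and 77.2 CPM (log2 -0.96, adjusted p = 0.135).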

How the data were processed

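Poly-A RNA of 11 libraries was sequenced, 6 of them from KO mice. The authors deposited raw counts per gene in 1 table, and tables of their own comparisons with log2 fold changes and p-values. Per the submitters' processing notes, bcl2fastq 2.17 and TopHat were used with mm9; the counting program and its strand setting were not given in the sources used here. Columns were matched to samples by name, and 0 were left unmatched. Of 23420 gene names, 5218 had no count, and 27 had been turned into dates.

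From the deposited counts, edgeR 4.0.16 (R 4.3.3, limma 3.58.1) kept 14531 genes by filterByExpr (minimum count 10, minimum total 15), holding 99.98% of counts. TMM scaling and the robust quasi-likelihood test were fitted over 4 groups with 7 residual degrees of freedom, with Benjamini-Hochberg adjustment over all genes tested. The common biological coefficient of variation was 15.8%. SE is the size of the log2 difference divided by the square root of F. Libraries held 15.7 to 25.5 M counts, so 3 counts, the floor used, equal 0.118 to 0.204 CPM; intervals cover counting error only. DESeq2 1.42.0, limma-voom, other scalings, filters and thresholds, a replicate block and leaving out libraries were the alternatives. On simulated data with 50 genes changed at each size among 14357, the KO test recovered 40% at 1.5-fold, 86% at 2-fold, 98% at 4-fold and 100% at 8-fold, with 9 false calls. The simulation gave each gene the spread of the trend over genes. It held no spread of a gene's own and no differences of clock state, muscle or blood cells between libraries. Recovery in the real data can be lower, and Elane, at 8.61-fold in KO, was not called.

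The labels number the replicates. In KO, same-numbered placebo and estradiol libraries deviated together from their group means (r = 0.29, 0.386 and 0.142). This was taken as pairing from the data, not from the labels. In WT r was -0.203 and -0.159, yet the block was also fitted over all 11 libraries. Deviations from the mean of so few libraries are tied to each other, so these r values cannot establish pairs. Results with the block are thus an alternative that assumes pairing.

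The comparison, the gene lists and the rules were chosen with earlier results of these data known. Named genes were, in each direction, up to 15 called genes of largest change (mean of at least 1 CPM, no overlap), up to 6 called members of each list or the 2 with the smallest p, the 10 with the smallest p for the difference between genotypes, and a fixed set of receptor, estrogen target and cartilage genes. In the cell cycle, neutrophil, erythroid, muscle, adipocyte, bone and cartilage lists any member could be given. Some genes that met these rules are not reported here. Other genes named were chosen after their values were seen. Promoters came from RefSeq (GRCm38.p6), matched by symbol.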

Additional observations from a re-analysis of the deposited data

Results flagged for a closer look

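The estradiol effect differed between KO and WT, by the test of the difference itself in edgeR, for the 31 genes given here, which were taken from those the naming rule picked, together with Lgi2 and Trpc6. A further 18 members of the gene lists, 11 positive and 7 negative, also passed and are not named. Values are the KO effect minus the WT effect on the log2 scale, with adjusted p from 3.06e-05 to 0.0481 over these 31. Fitted values of genes with 0 or few counts in a group, such as Prss34, Mcpt8, Fcnb and Tmprss3, depend on the prior count and are no bound. Clock state was not balanced in this test, as WT placebo 1 and KO placebo 1 and 2 shared a state opposite to that of the other libraries. Whether these differences hold with the clock state as a term is not given here.

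Positive differences were seen in genes of blood cells: Prss34 (15.13), Mcpt8 (13.45), Fcnb (10.83), Ms4a3 (10.40), Nkg7 (7.23), Clec4e (6.82), Myb (6.35), Il7r (4.83), Ptprcap (4.79), Bcl11a (4.43), Gca (4.25), Il2rb (4.21), Ms4a4c (4.17), Pyhin1 (3.76), Ikzf1 (2.84) and Myl4 (2.65). Myl4 is counted here with the early B cell genes. Nup210 (4.80), a nucleoporin, and Oas3 (4.33), of the interferon list, were positive as well. Cxcr4 (1.86) and its ligand gene Cxcl12 (2.75), both of blood cell retention in marrow, were positive too, as was Tmprss3 (8.96). A positive difference can hold a rise in KO, a fall in WT or both. Ms4a3 and Cxcl12 were not called in KO. For Ms4a3 the log2 effect in edgeR was 3.27 in KO (adjusted p = 0.119) and -7.12 in WT (adjusted p = 0.0641).

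The replication genes Uhrf1 (1.33), E2f8 (1.56) and Rrm2 (1.21) were positive, as was the growth factor gene Igf1 (1.49), which was not called in KO. Negative differences among the 31 were those of Greb1 (-6.95), Lgi2 (-6.16), Trpc6 (-4.22), Sost (-1.58), a Wnt inhibitor made by osteocytes, Wnt4 (-1.40) and Egfl7 (-0.60), an endothelial gene. All of these but Egfl7 are in the list of 11 genes taken for their large WT rise, and all 11 passed with negative differences. That rise enters the difference, so the negative sign and small p of these 11 follow from how they were picked and are no finding.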

How the results depend on the processing

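No named gene changed sign in any of the 26 alternatives where it was called in the main fit or in that alternative. Sign changes of genes called in neither were not counted. Called genes (396, higher 343, lower 53) numbered 226 with KO libraries alone (181 higher), 952 in DESeq2 (691 and 261), 714 at an adjusted p under 0.1 (571 and 143), 210 at 2-fold or more (204 and 6), and 134 without KO placebo 1 and WT placebo 2 (125 and 9); limma-voom called 30 lower. With the replicate block they were 629 (542 and 87), and with the block in KO libraries alone, chosen after seeing the data, 1090 (756 and 334). In the libraries of 1 clock state there was 1 call (0 and 1), and with that state as a term 23 (23 and 0). Leaving out 1 library gave 105 to 505 calls, 100 to 480 higher and 4 to 137 lower. The difference between genotypes (167) had 561 calls in DESeq2, 69 in limma-voom, 395 at an adjusted p under 0.1, 301 with the block, 56 without KO placebo 1 and WT placebo 2, 96 in 1 clock state, and 68 to 270 with 1 library left out. Replication calls (15) were 5 in KO alone, 25 in DESeq2, 24 at an adjusted p under 0.1, 5 at 2-fold, 7 without KO placebo 1 and WT placebo 2, 0 and 3 by clock state, and 5 to 16 with 1 library left out; mitosis calls (49) were 0 and 4, and 27 to 49. The share of calls that were higher was 86.6%, 72.6% in DESeq2 and 83.6% with upper-quartile scaling. The causes were not tested. Of 65 named called genes, 13 kept their call in the 24 alternatives other than those of the clock, and 0 in all 26. With the block these uncalled genes passed: Ms4a3 (3.44), Ltb4r1 (2.54), Gata1 (3.83), H2-DMa (0.65), Matn4 (-0.51), Podn (-0.81), Socs3 (-0.53) and Oas1a (1.20). Depth limits genes at a few counts.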

Other observations

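Some clock genes other than Dbp and Arntl, chosen after their values were seen, divided the libraries in the same way. Tef, a relative of Dbp, stood at 237, 238 and 69.0 CPM in KO placebo 1 to 3 and at 42.8, 43.2 and 47.1 CPM in KO estradiol 1 to 3. Per3, a period gene, stood at 99.1, 100.3 and 26.2 CPM against 11.5, 12.6 and 16.2 CPM. Npas2, which pairs with the Arntl product, stood at 4.19, 6.71 and 59.1 CPM against 64.1, 37.7 and 46.5 CPM. KO placebo 3 lay within the range of the estradiol libraries for Npas2 and between the groups for Tef and Per3.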
